A study of Mus musculus with 6 samples.

Results

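The fibroblast growth factor (FGF), epidermal growth factor (EGF), platelet-derived growth factor (PDGF) and hepatocyte growth factor (HGF) families were described in floated adipocytes of inguinal subcutaneous white adipose tissue (scWAT). They were taken by gene symbol: all numbered *Fgf* genes, *Fgfr1* to *Fgfr4*, *Fgfrl1* and *Klb*, the EGF-type ligands with the neuregulins, *Egfr* and *Erbb2* to *Erbb4*, *Pdgfa* to *Pdgfd*, and *Hgf* with *Met*. This gave 49 of the 37384 symbols in the count table, with no filter on their counts: 22 FGF ligands, 6 genes of the FGF receptor group, 11 EGF-type ligands, 4 EGF receptor genes, 4 PDGF ligands and 2 genes of the HGF pair.

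Adipocytes were isolated from male mice at postnatal day 7 by collagenase digestion and flotation, and RNA was sequenced from 6 libraries, each made from 4 pooled mice. In 3 libraries (L1L2-FF) the mice were *Lats1*f/f*Lats2*f/f, with both genes floxed and no Cre. In the other 3 (L1L2-AKO) the same floxed mice also carried *Adipoq*Cre, in which the adiponectin promoter drives Cre, chiefly in adipocytes. LATS1 and LATS2 are the kinases of the Hippo pathway that restrain the co-activators YAP and TAZ, and the comparison asks how adipocyte transcripts differ when they are deleted. The sources used here do not say whether any mouse contributed to more than 1 pool, so p-values measure the spread between these libraries.

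FGF, EGF, PDGF and HGF ligands are mostly secreted or shed proteins that bind receptor tyrosine kinases on the same or neighbouring cells and feed the RAS-ERK cascade. In adipose tissue FGF10 and FGF1 are known for adipocyte formation and fat remodelling, FGF21 acts on adipocytes through FGFR1 and its co-receptor beta-Klotho (*Klb*), and NRG4 is known as an adipose-secreted ligand of ERBB4. PDGFs act on progenitors through PDGFRα and on mural cells through PDGFRβ.

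The genotype labels were checked on both targeted genes. *Lats1* had 2383, 3049 and 2434 counts in the 3 L1L2-FF libraries against 1291, 1299 and 1160 in libraries labelled L1L2-AKO (log2 fold change -1.04, SE 0.118, edgeR adjusted p = 0.00131). *Lats2* went the other way, with 2348, 2772 and 2127 counts against 3188, 3987 and 3879 (0.64, SE 0.156, adjusted p = 0.0278), so the direction of *Lats2* goes against the label and "labelled L1L2-AKO" is kept throughout. Its call did not hold without replicates 2 or 3 labelled L1L2-AKO (adjusted p = 0.104 and 0.0946) or L1L2-FF replicates 1 or 3 (0.100 and 0.0651), and 41.2% of its 50-base stretches also occur in the overlapping annotation *Gm49361*. The counts cover whole genes, and which exons the floxed alleles remove was not used here, so reads outside the deleted part check nothing.

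Total counts per library ranged from 30548473 to 32107917. The 16 mature adipocyte markers summed to 36290 to 46882 TMM-scaled CPM (counts relative to library size) in L1L2-FF and 19882 to 25677 in libraries labelled L1L2-AKO, with 9 lower and 0 higher by the test. Of 18 macrophage markers, 14 were higher and 0 lower, with summed levels of 313 to 593 CPM against 1087 to 1209. The 14 endothelial markers (0 higher, 1 lower) summed to 2343 to 3098 against 1396 to 3031 CPM, the 14 Schwann cell markers (1 higher, 6 lower) to 975 to 1888 against 811 to 1461, the 13 mural markers (3 and 3) to 1673 to 2087 against 1900 to 2099, and the 14 progenitor markers (1 and 3) to 722 to 1047 against 600 to 735. Markers of skeletal muscle (7 tested), lymphoid cells (11) and mast cells with neutrophils (9) gave 0 calls in edgeR (at an unadjusted p under 0.05, 1 higher and 3 lower, 3 and 0, and 0 and 1; DESeq2 called 3, 1 and 0, and limma-voom 1, 0 and 0), and 1 of 3 tested epithelial markers was lower (summed 10.3 to 12.8 against 3.3 to 4.13 CPM). No marker was at 0 in every library, and in bulk RNA fewer cells of a type and less RNA per cell cannot be told apart. The part that these shifts have in the values below was not tested, except where a value is given.

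Sequences directly before the start sites of 4 of the genes are shown. Large contrasts below were those of the receptor *Egfr* and its ligand *Btc*, which were higher, and of the neuregulin *Nrg4*, which was lower. *Met* is shown as the one called gene with an AP-1 motif, and its contrast was small (1.52-fold). Each is the 250 bases upstream of a RefSeq start (GRCm38.p6), 5′ to 3′ on the gene's strand. Capitals mark the AP-1 motif (TGAGTCA or TGACTCA) and the GC box (GGGCGG or CCGCCC), which was added to the search after the results were known. The *Egfr* window is chr11:16751953-16752202 (plus strand) and that of *Btc* chr5:91402995-91403244 (minus). That of *Nrg4* is chr9:55283626-55283875 (minus) and that of *Met* chr6:17463707-17463956 (plus). The RefSeq starts of *Nrg4* and *Met* lie inside the longer GENCODE gene spans. The *Met* span begins at 17463800, so part of the *Met* window, with the AP-1 motif, lies within the annotated gene.
Egfr: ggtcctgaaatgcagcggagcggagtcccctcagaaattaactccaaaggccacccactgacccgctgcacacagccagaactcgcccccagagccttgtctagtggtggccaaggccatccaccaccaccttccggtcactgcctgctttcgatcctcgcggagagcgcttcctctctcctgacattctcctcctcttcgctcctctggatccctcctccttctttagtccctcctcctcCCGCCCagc
Btc: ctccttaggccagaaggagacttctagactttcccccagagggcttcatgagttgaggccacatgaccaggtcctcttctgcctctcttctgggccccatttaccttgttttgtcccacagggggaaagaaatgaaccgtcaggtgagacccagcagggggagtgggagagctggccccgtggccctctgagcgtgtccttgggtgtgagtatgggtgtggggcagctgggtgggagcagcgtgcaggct
Nrg4: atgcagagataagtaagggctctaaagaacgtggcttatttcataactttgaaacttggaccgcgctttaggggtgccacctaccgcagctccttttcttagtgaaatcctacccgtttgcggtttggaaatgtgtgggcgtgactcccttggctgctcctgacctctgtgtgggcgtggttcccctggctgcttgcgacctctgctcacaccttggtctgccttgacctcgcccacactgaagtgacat
Met: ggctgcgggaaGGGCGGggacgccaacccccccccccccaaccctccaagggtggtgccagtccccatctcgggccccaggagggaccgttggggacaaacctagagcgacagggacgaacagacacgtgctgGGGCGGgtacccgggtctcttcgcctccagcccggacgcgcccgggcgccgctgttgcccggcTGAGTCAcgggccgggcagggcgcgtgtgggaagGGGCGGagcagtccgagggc

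GC content of these windows was 60.8% for *Egfr*, 59.6% for *Btc*, 53.2% for *Nrg4* and 74.0% for *Met*, against a median of 52.4% over all promoters. A GC box stood 9 bases before the *Egfr* start and 239, 117 and 20 bases before that of *Met*, whose AP-1 motif began 54 bases before the start. The *Btc* and *Nrg4* stretches held neither motif. In windows of 250 bases before to 50 after the start, the TEAD motif (GGAATG or CATTCC on either strand), the motif of the factors that YAP and TAZ bind, was found in 8 of 46 windows of the growth factor genes (17.4%) and in 14.7% of all 32851 windows. Among the called genes it was found in *Klb* and *Fgf14*, 33 and 10 bases after the start, and both were lower. The AP-1 motif was found in 2 of 46 windows (4.35%, against 5.2% of all) and the GC box in 24 of 46 (52.2%, against 35.7%). The TATA box (TATAAA or TTTATA), which like the GC box was not in the planned search, was found in 6 of 46 (13.0%, against 13.6%). These counts are descriptions of letters in the windows, and windows were given for 36 of the 49 genes.

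Of the 49 genes, 31 had enough counts to be tested and 18 did not. Between the genotypes 11 of the 31 passed the edgeR quasi-likelihood test at an adjusted p under 0.05 (Benjamini-Hochberg over all genes tested), with 7 genes higher in libraries labelled L1L2-AKO and 4 lower. This is 35.5% of the tested genes, where 16.5% of all 15674 tested genes passed, 9.28% higher and 7.18% lower. The higher genes were *Btc*, *Egfr*, *Fgf9*, *Fgf18*, *Pdgfa*, *Pdgfd* and *Met*, and the lower genes were *Fgf14*, *Nrg4*, *Fgfr2* and *Klb*. The values of the 2 genotypes did not overlap for 18 of the 31 (12 higher, 6 lower), where 36.4% of all tested genes did not overlap. The median log2 fold change was 0.28 over the 31 genes and -0.02 over all tested genes. *Fgf9*, *Fgf14*, *Fgf21*, *Erbb4* and *Areg* were under the count minimum in at least 1 library of a genotype, and a gene that passed the filter only through its high group had to differ, so these counts describe the tested genes and not all 49.

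**Figure D1:**
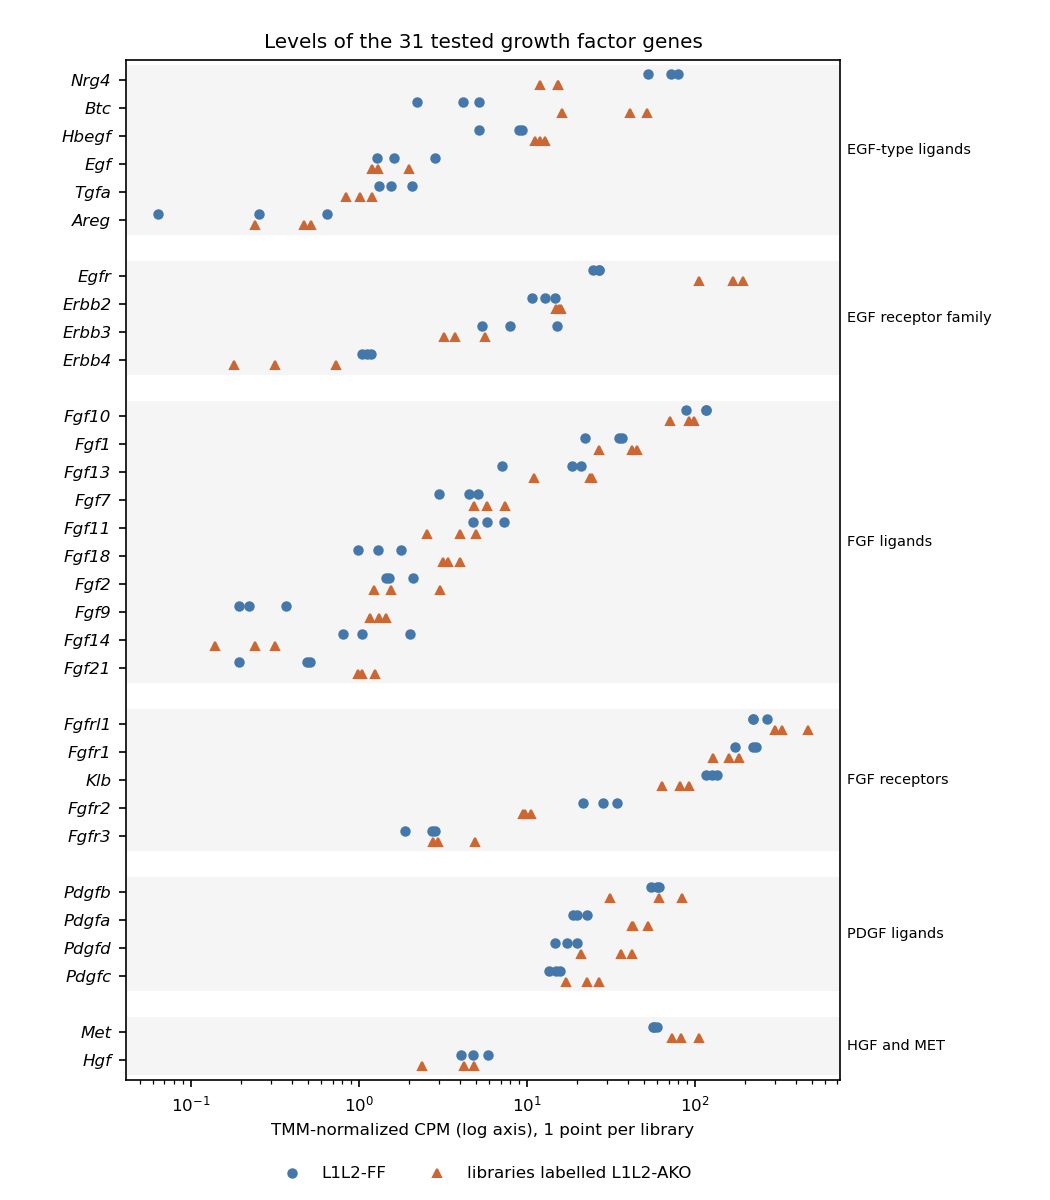
TMM-normalized CPM on a log axis for the 31 tested genes, 1 point per library: circles are the 3 L1L2-FF libraries and triangles the 3 libraries labelled L1L2-AKO. The triangles of *Egfr* and *Btc* lie to the right of all circles, those of *Nrg4* and *Fgfr2* to the left, and those of *Pdgfb* lie on both sides.

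Among the EGF-type ligands, betacellulin (*Btc*) was higher and neuregulin 4 (*Nrg4*) was lower, and these were the 2 calls among 6 tested. *Btc*, a ligand of EGFR and ERBB4, had 4.18, 5.23 and 2.22 CPM in L1L2-FF and 16.2, 41.5 and 51.7 in libraries labelled L1L2-AKO. All 3 of the latter lay above all L1L2-FF libraries, with replicate 1 closest to them. The difference was 9.39-fold (log2 fold change 3.23, SE 0.469, edgeR adjusted p = 0.00342), and it passed with each library left out (2.90 to 3.59).

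*Nrg4* had 71.8, 52.6 and 79.7 CPM in L1L2-FF against 15.4, 12.0 and 15.4. The 3 libraries labelled L1L2-AKO were close to each other and all were below L1L2-FF. It was 4.76-fold higher in L1L2-FF (log2 fold change -2.25, SE 0.186, edgeR adjusted p = 4.04e-04) and was called with each library left out. Of the mature adipocyte markers 9 of 16 also fell, with a median log2 fold change of -0.96 and a range over the 16 from -4.14 to 0.41, and their part in *Nrg4* was not tested. *Nrg4* shares 6.06% of its exon bases with *Fbxo22* on the opposite strand, whose log2 fold change was -0.05 (adjusted p = 0.866).

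*Hbegf*, the precursor of heparin-binding EGF, had 9.35, 8.97 and 5.22 CPM in L1L2-FF and 12.0, 12.8 and 11.2 in libraries labelled L1L2-AKO. Its groups did not overlap, but it did not pass the test (log2 fold change 0.62, SE 0.231, edgeR adjusted p = 0.111). The other 3 tested ligands were also not called: *Egf* (-0.36, SE 0.379), *Tgfa* (-0.69, SE 0.315, groups not overlapping) and *Areg*, which had 2 to 21 counts (0.34, SE 0.711).

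Neuregulin 1 (*Nrg1*), a ligand of ERBB3 and ERBB4, was under the count filter. It had 0, 0 and 2 counts in L1L2-FF and 8, 6 and 17 in libraries labelled L1L2-AKO. The summed counts of 2 and 31 give a ratio of 15.7, with an exact 95% interval of 4.00 to 136 that covers counting error only. In the edgeR fit with no filter its adjusted p was 0.0586, and in DESeq2 it passed. *Nrg2* had 0 to 4 against 2 to 20 counts, *Epgn* 2 to 12 and *Ereg* 0 to 7 over all libraries, and *Nrg3* was at 0 in all 6. A floor of 3 counts corresponded to 0.0905 to 0.105 CPM in these libraries.

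*Epgn*, *Ereg*, *Areg* and *Btc* lie side by side on chromosome 5 (mm10), at chr5:91027464-91035215, chr5:91074622-91093646, chr5:91139599-91148432 and chr5:91357261-91402994. In this cluster *Btc* averaged 2.54 TPM (counts scaled by exon length and library total) in L1L2-FF and 24.4 in libraries labelled L1L2-AKO, and *Areg*, the next highest, 0.802 and 1.04.

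On the same scale, the summed EGF-type ligands were 44.6, 39.9 and 42.5 in L1L2-FF and 30.9, 46.3 and 49.1 in libraries labelled L1L2-AKO, so the sums overlapped while the make-up did not. *Nrg4* was 76.0, 67.4 and 86.5% of the L1L2-FF sums and 27.4, 13.3 and 14.7% of the others. *Btc* was 5.94, 8.99 and 3.24% in L1L2-FF and 38.6, 61.9 and 66.2% in those labelled L1L2-AKO. *Btc* was thus the most abundant EGF-type ligand per length in each library labelled L1L2-AKO and *Nrg4* in each L1L2-FF library. In replicate 1 labelled L1L2-AKO *Btc* and *Nrg4* were close before scaling by length (16.2 and 15.4 CPM). The margin there depends on the lengths used, which were those of all annotated exons together.

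In the EGF receptor family, *Egfr* was the gene that passed the test, and it was higher. *Egfr* (chr11:16752203-16918158) had 26.8, 26.9 and 25.0 CPM in L1L2-FF, a narrow range, and 106, 170 and 193 in libraries labelled L1L2-AKO. Every library of the latter was above every L1L2-FF library. The difference was 5.97-fold (log2 fold change 2.58, SE 0.218, edgeR adjusted p = 4.57e-04) and held with each library left out (2.40 to 2.79).

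*Erbb2*, which has no known ligand and acts as a partner of the other receptors, had 12.9, 14.8 and 10.7 CPM in L1L2-FF and 15.0, 16 and 15.6 in libraries labelled L1L2-AKO. The groups were barely apart and the difference did not pass (log2 fold change 0.28, SE 0.155, edgeR adjusted p = 0.271). *Erbb3*, a neuregulin receptor with a weak kinase, had 5.46, 15.2 and 7.93 CPM against 3.74, 5.65 and 3.21. The groups overlapped, with replicate 2 highest in both genotypes, and *Erbb3* was not called (log2 fold change -1.18, SE 0.391, edgeR adjusted p = 0.0773). It passed in DESeq2 (adjusted p = 0.0166) and in edgeR without the filter (0.0478). The summed Schwann cell markers were 975, 1888 and 1438 CPM over the L1L2-FF replicates in order and 811, 1461 and 1404 in libraries labelled L1L2-AKO. They were also highest in replicate 2 of both genotypes. In libraries labelled L1L2-AKO the marker sum was lowest in replicate 1 and *Erbb3* in replicate 3. The sum moved less than most of its genes: the 14 Schwann cell markers had a median log2 fold change of -1.58. They ranged from -2.10 to 1.02, with 6 lower and 1 higher by the test. The part of these markers in *Erbb3* was not tested.

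*Erbb4*, the receptor of NRG4 and also of BTC and NRG1, was the scarcest of the family. It had 34 to 37 counts in L1L2-FF and 6, 10 and 21 in libraries labelled L1L2-AKO. These groups did not overlap, and the gene is described although outside the rule for named genes because its ligand *Nrg4* was lower. Its ligands *Btc* and *Nrg1* had higher counts in the libraries labelled L1L2-AKO. It was not called (log2 fold change -1.46, SE 0.496, edgeR adjusted p = 0.0833), but passed without replicate 3 labelled L1L2-AKO (adjusted p = 0.0384).

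Per exon length, the family summed to 16.7, 24.3 and 15.9 TPM in L1L2-FF and 42.9, 59.6 and 58.7 in libraries labelled L1L2-AKO. *Egfr* was 30.3 to 40.5% of the former sums and 72.7 to 82.6% of the latter, *Erbb2* 36.2 to 42.3% and 14.5 to 22.4%, and *Erbb3* 15.5 to 32.3% and 2.58 to 4.92%. *Egfr* and *Erbb2* were close per length in L1L2-FF, with means of 6.77 and 7.22 TPM, and stood at 42.2 and 9.24 TPM in the libraries labelled L1L2-AKO.

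**Figure D2:**
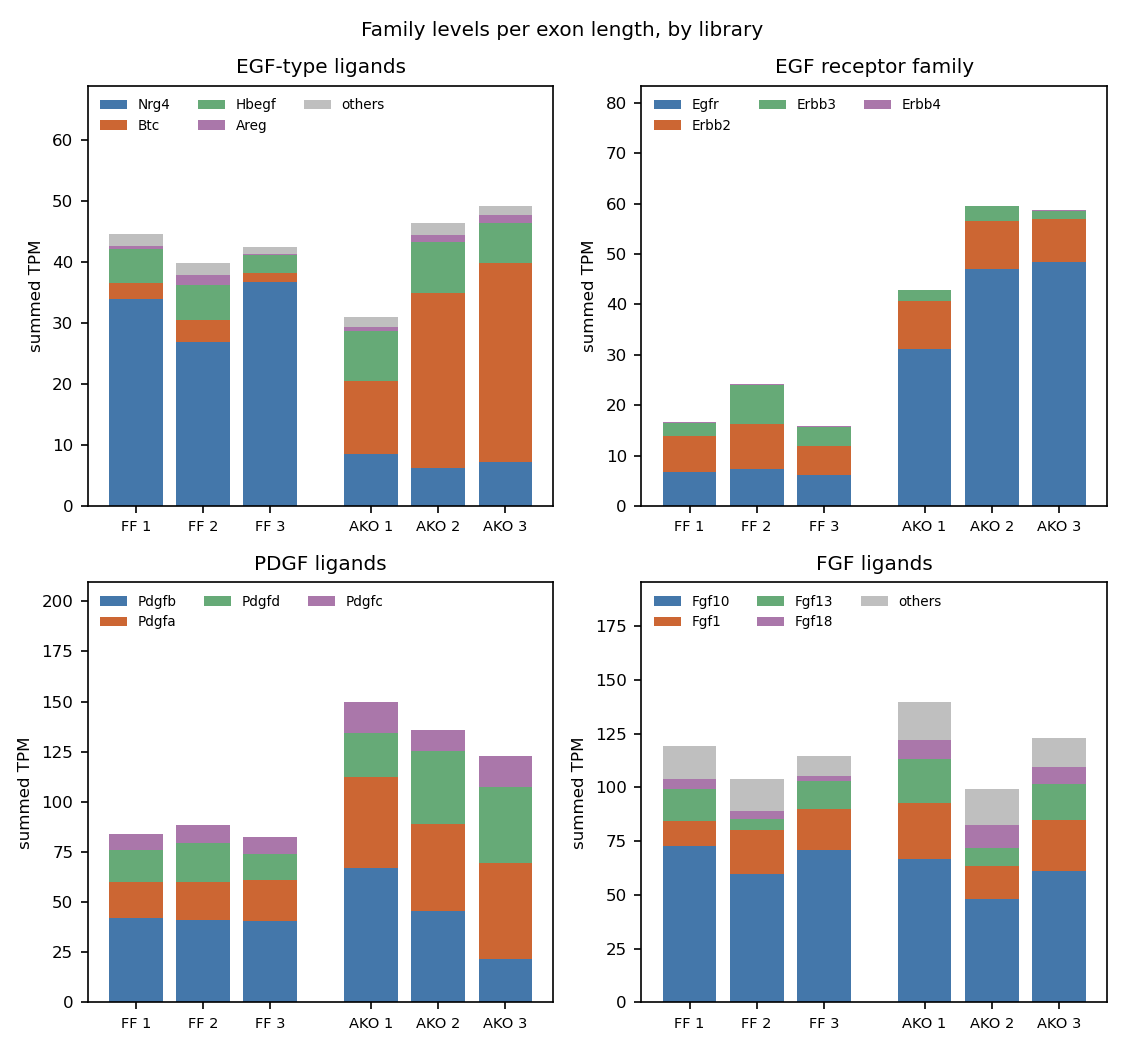
Summed TPM of 4 families in each library, as stacked bars from 0, with the 4 genes of the highest mean share in colour and all other genes of a family in grey. The *Nrg4* part of the EGF-type ligands is 67.4 to 86.5% in the FF bars and 13.3 to 27.4% in the bars labelled AKO, where *Btc* fills 38.6 to 66.2%.

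Of the FGF ligands, 10 of 22 were tested, and *Fgf9* and *Fgf18* were higher and *Fgf14* lower. All 3 were low transcripts. *Fgf9*, a secreted ligand, had 7, 12 and 6 counts in L1L2-FF and 39, 42 and 42 in libraries labelled L1L2-AKO. The groups were far apart (4.97-fold, log2 fold change 2.31, SE 0.383, edgeR adjusted p = 0.00598). The libraries labelled L1L2-AKO were close to each other, and those of L1L2-FF were low and less even. It was over the count minimum in 1 L1L2-FF library and in 3 labelled L1L2-AKO, so it entered the test through the group where it was high, and its call is given as a description.

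*Fgf18*, a secreted ligand of the same kind known from bone and cartilage, had 56, 42 and 31 counts against 105, 126 and 97. The groups did not overlap (2.58-fold, log2 fold change 1.37, SE 0.286, edgeR adjusted p = 0.0157), and the call was lost without replicate 2 labelled L1L2-AKO (adjusted p = 0.0716). *Fgf14* encodes an FGF homologous factor, an intracellular protein that binds voltage-gated sodium channels and is not secreted. It had 63, 34 and 25 counts in L1L2-FF and 8, 10 and 4 in libraries labelled L1L2-AKO, entered the test through the L1L2-FF libraries, and was 5.42-fold higher there (log2 fold change -2.44, SE 0.507, edgeR adjusted p = 0.0152). Its call was lost without replicate 3 labelled L1L2-AKO (adjusted p = 0.0662) or L1L2-FF replicate 1 (0.0627).

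The 3 most abundant FGF ligands were not called. *Fgf10* had 117, 88.7 and 117 CPM in L1L2-FF and 92.5, 70.9 and 98.9 in libraries labelled L1L2-AKO, with replicate 2 lowest in both genotypes (log2 fold change -0.30, SE 0.167, edgeR adjusted p = 0.275). *Fgf1* had 22.2, 35.6 and 37.0 against 42.4, 26.9 and 45.3 CPM (0.27, SE 0.247, adjusted p = 0.513). *Fgf13*, another FGF homologous factor, had 21.1, 7.14 and 18.8 against 24.5, 11.0 and 23.8 CPM, again with replicate 2 lowest in both genotypes, and differed more within than between them (0.33, SE 0.425, adjusted p = 0.655).

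*Fgf21*, the endocrine ligand that needs *Klb*, had 16, 16 and 6 counts in L1L2-FF and 33, 33 and 36 in libraries labelled L1L2-AKO. It is given, although outside the rule for named genes, because its groups did not overlap. It did not pass the edgeR test (log2 fold change 1.45, SE 0.424, adjusted p = 0.0532) and passed DESeq2 (adjusted p = 0.0334). *Fgf7* (0.51, SE 0.264), *Fgf2* (0.21, SE 0.388) and *Fgf11* (-0.63, SE 0.286) overlapped between genotypes. The remaining 12 FGF ligands were left out by the filter: *Fgf5*, *Fgf6*, *Fgf8* and *Fgf23* were at 0 in all libraries, and the other 8 reached at most 11 counts in any library.

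The summed FGF ligands were 104 to 119 TPM in L1L2-FF and 99.3 to 140 in libraries labelled L1L2-AKO and overlapped. *Fgf10* was the largest part in every library, at 57.6 to 62.0% in L1L2-FF and 48.0 to 49.7% in the libraries labelled L1L2-AKO. *Fgf18*, whose exons are short, was 2.05 to 3.61% of the sum in L1L2-FF and 6.36 to 10.6% in the others.

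In the FGF receptor group, *Fgfr2* and *Klb* were lower, and 0 of 5 tested genes were higher in edgeR (1 at an unadjusted p under 0.05, *Fgfrl1*, which DESeq2 called). *Fgfr2*, the receptor for FGF10 and FGF7 in its epithelial splice form, had 34.4, 21.5 and 28.4 CPM in L1L2-FF and 10.6, 9.58 and 9.74 in libraries labelled L1L2-AKO. The latter were tightly grouped below all L1L2-FF libraries, 2.81-fold apart (log2 fold change -1.49, SE 0.184, edgeR adjusted p = 0.00185), and the call held with each library left out. The counts are per gene and do not separate splice forms. *Ctbp2*, which shares 3.04% of the *Fgfr2* exon bases on the same strand, had a log2 fold change of 0.17 (adjusted p = 0.351).

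*Klb* had 127, 117 and 135 CPM against 82.0, 63.6 and 92.1. The groups did not overlap and were 1.60-fold apart (log2 fold change -0.67, SE 0.152, edgeR adjusted p = 0.0207), and the call was lost without replicate 2 labelled L1L2-AKO (adjusted p = 0.0694) or L1L2-FF replicate 1 (0.0715). In the libraries labelled L1L2-AKO the summed adipocyte markers and *Klb* were in the same order, lowest in replicate 2 (19882 CPM) and highest in replicate 3 (25677 CPM), and their part in *Klb* was not tested.

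*Fgfr1*, the receptor through which FGF21 acts on adipocytes, had 221, 232 and 174 CPM in L1L2-FF and 129, 160 and 185 in libraries labelled L1L2-AKO. The groups overlapped and it was not called (log2 fold change -0.41, SE 0.172, edgeR adjusted p = 0.154). *Fgfrl1*, a receptor-like protein that lacks the tyrosine kinase domain, had 222, 268 and 223 CPM against 300, 331 and 470, and also had the highest mean per exon length of the 31 genes (250 and 403 TPM). Its groups did not overlap, and the difference was just short of the threshold (log2 fold change 0.63, SE 0.190, adjusted p = 0.0582). It passed without replicate 1 labelled L1L2-AKO (0.0434) or L1L2-FF replicate 2 (0.0489), without the count filter (0.0443) and in DESeq2 (0.0133). *Fgfr3* was not called (0.52, SE 0.305), and *Fgfr4* had 0 to 13 counts.

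Per exon length, *Fgfrl1* made up 59.6 to 65.1% of the FGF receptor group in L1L2-FF and 76.7 to 80.7% in the libraries labelled L1L2-AKO, *Klb* 17.4 to 22.8% and 9.30 to 12.8%, *Fgfr1* 13.5 to 16.7% and 8.95 to 10.8%, and *Fgfr2* 1.41 to 2.49% and 0.451 to 0.734%. These shares used the length of all annotated exons together, which understates genes with many alternative exons such as *Fgfr1* and *Fgfr2*.

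Among the PDGF ligands, *Pdgfa* and *Pdgfd* were higher, and 0 of 4 were lower in edgeR, DESeq2 and limma-voom or at an unadjusted p under 0.05. *Pdgfa*, the ligand of PDGFRα, had 19.9, 18.9 and 22.8 CPM in L1L2-FF and 42.4, 43.1 and 52.9 in libraries labelled L1L2-AKO. All 3 of the latter were well above L1L2-FF (2.25-fold, log2 fold change 1.17, SE 0.135, edgeR adjusted p = 0.00142), and the call held with each library left out. An antisense gene, *6330403L08Rik*, covers 26.1% of the *Pdgfa* exon bases, and since the strand setting of the counting is not given in the sources used here, reads of the pair may not be told apart. Its own log2 fold change was 0.48 (SE 0.165, adjusted p = 0.0858), with 303 to 417 counts against 447 to 518, where *Pdgfa* had 611 to 706 against 1360 to 1514.

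*Pdgfd*, a ligand of PDGFRβ that is secreted in a latent form, had 17.5, 19.8 and 14.7 CPM against 21.1, 36.6 and 42.1. Replicate 1 labelled L1L2-AKO lay just above L1L2-FF, and the difference was 1.92-fold (log2 fold change 0.94, SE 0.248, edgeR adjusted p = 0.0375). The call was lost without replicates 2 or 3 labelled L1L2-AKO (adjusted p = 0.125 for each) or L1L2-FF replicates 1 or 3 (0.112 and 0.0937), and in limma-voom (0.0604). *Pdgfc*, a latent ligand of PDGFRα and outside the rule for named genes, had 13.6, 14.9 and 15.8 against 23.0, 17.1 and 26.9 CPM, did not overlap and was not called (0.59, SE 0.180, adjusted p = 0.0578). It passed without replicate 2 labelled L1L2-AKO (0.0352) and in DESeq2 (0.0272).

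*Pdgfb*, the ligand through which endothelium recruits mural cells, had 61.1, 55.2 and 60.1 CPM in L1L2-FF and 83.8, 61.1 and 31.5 in libraries labelled L1L2-AKO. The 3 latter libraries spread from above to below all L1L2-FF libraries, and the estimate was 0.00 (SE 0.298, edgeR adjusted p = 0.999). The summed endothelial markers in the same 3 libraries were 3031, 2394 and 1396 CPM, in the same order as *Pdgfb*, and 3098, 2870 and 2343 in L1L2-FF. Their part in *Pdgfb* was not tested.

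Per exon length the PDGF ligands summed to 83.8, 88.5 and 82.5 TPM in L1L2-FF and 150, 136 and 123 in libraries labelled L1L2-AKO. *Pdgfb* was the largest part in L1L2-FF (46.5 to 50.1%) and was 44.8, 33.8 and 17.5% in replicates 1, 2 and 3 labelled L1L2-AKO, where *Pdgfa* was 30.2, 31.8 and 39.3%. In replicate 3 labelled L1L2-AKO *Pdgfa* and *Pdgfd* (30.9%) both exceeded *Pdgfb*.

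*Met*, the receptor of HGF, had 56.1, 57.2 and 59.4 CPM in L1L2-FF and 82.7, 73.0 and 106 in libraries labelled L1L2-AKO. The groups did not overlap and were 1.52-fold apart (log2 fold change 0.60, SE 0.148, edgeR adjusted p = 0.0291). Like that of *Pdgfd*, this call was lost with 4 of the 6 libraries left out: replicates 1 or 3 labelled L1L2-AKO (adjusted p = 0.0514 and 0.0752) and L1L2-FF replicates 1 or 3 (0.105 and 0.0513). *Hgf* had 4.82, 4.05 and 5.90 against 2.38, 4.22 and 4.85 CPM, overlapped and was not called (-0.37, SE 0.296, adjusted p = 0.457). Per exon length *Met* was 90.4 to 93.0% of the *Hgf* and *Met* sum in L1L2-FF and 94.2 to 97.0% in the libraries labelled L1L2-AKO.

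**Figure D3:**
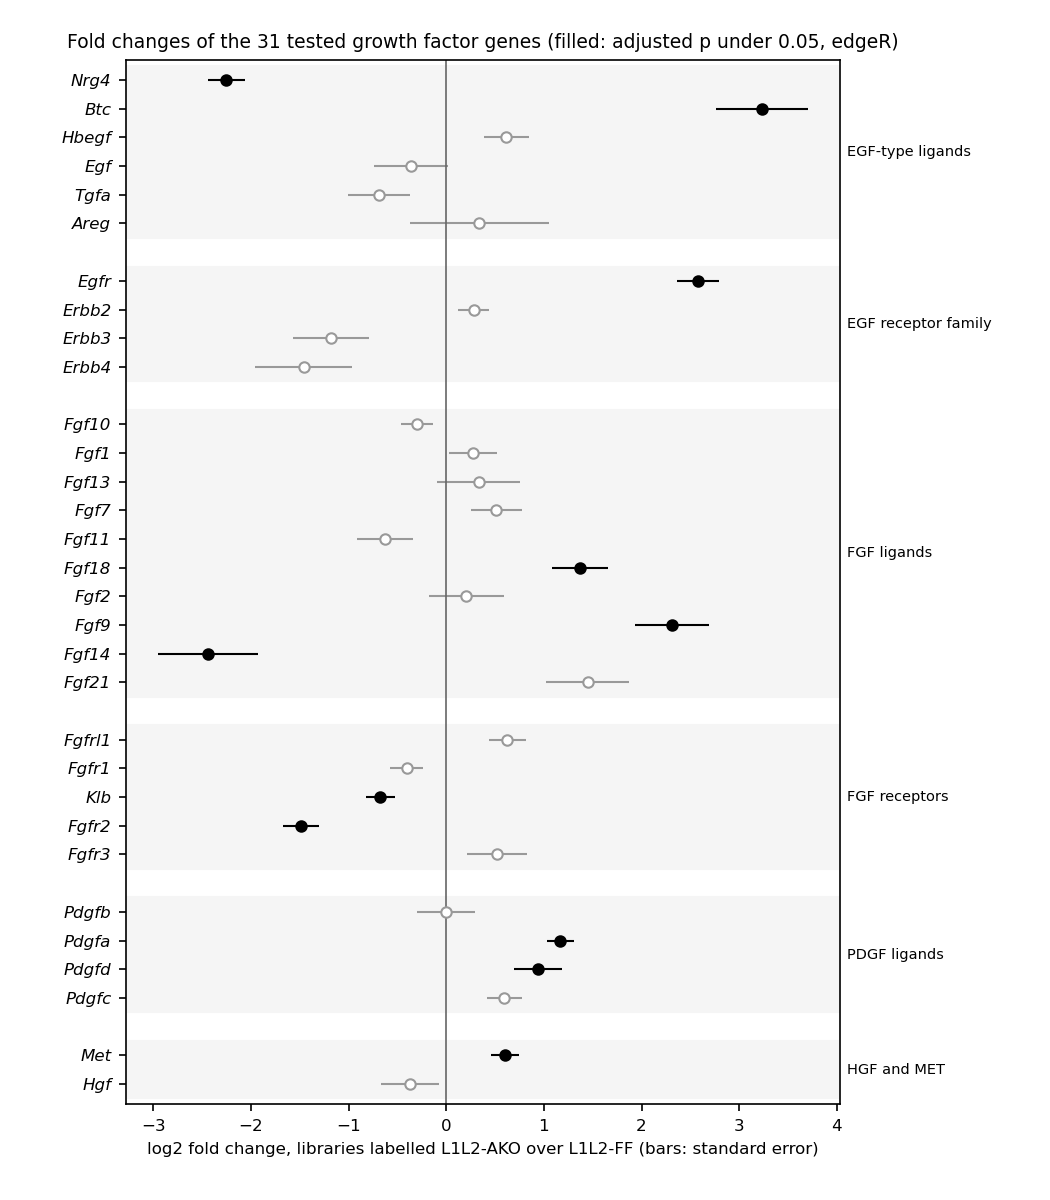
Log2 fold change of each tested gene, libraries labelled L1L2-AKO over L1L2-FF, with bars of 1 standard error and filled points where the edgeR adjusted p was under 0.05. *Btc* (3.23), *Egfr* (2.58) and *Fgf9* (2.31) lie farthest to the right, and *Fgf14* (-2.44) and *Nrg4* (-2.25) farthest to the left.

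The libraries labelled L1L2-AKO were not alike among the called genes. By CPM, 6 of the 7 higher genes were lowest in replicate 1 of that genotype and 6 were highest in replicate 3. *Met* was lowest in replicate 2 and *Fgf18* highest there. The 4 lower genes showed another order: 3 were lowest in replicate 2 and 1 (*Fgf14*) in replicate 3. *Lats1* in the same 3 libraries stood at 38.9, 41.2 and 40.5 CPM. These orders depend on the scaling: by raw counts *Pdgfa* (1404, 1360 and 1514) was lowest in replicate 2. The order over all called genes was not counted, so whether it is particular to these genes is not known.

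**Figure D4:**
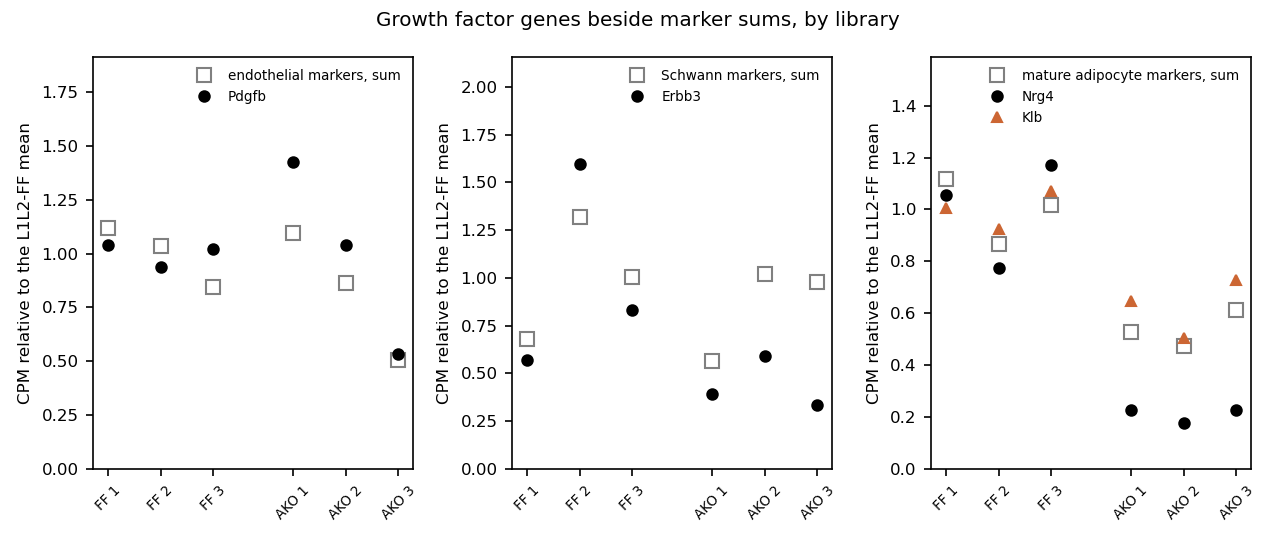
CPM of *Pdgfb*, *Erbb3*, *Nrg4* and *Klb* in each library (filled symbols) and of summed endothelial, Schwann cell and mature adipocyte markers (open squares), each divided by its L1L2-FF mean on an axis from 0. *Pdgfb* and the endothelial sum stand in the same order in the libraries labelled AKO, *Klb* stays near or above the adipocyte sum, and *Nrg4* lies below that sum in those libraries.

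The partners of these ligands and receptors were read from lists chosen with earlier results of these data known. Neither PDGF receptor passed the test. *Pdgfra* had 41.4, 62.5 and 25.2 CPM in L1L2-FF and 38.8, 39.2 and 33.7 in libraries labelled L1L2-AKO (log2 fold change -0.21, SE 0.283, edgeR adjusted p = 0.677), and *Pdgfrb* had 193, 181 and 129 against 216, 252 and 222 (0.45, SE 0.169, adjusted p = 0.109). At an unadjusted p under 0.05, 1 of the 3 listed genes was higher and 1 lower; limma-voom called 0 and DESeq2 called *Pdgfrl*, a PDGF receptor-like protein without a kinase, lower (edgeR -0.84, SE 0.264, adjusted p = 0.0653). *Pdgfrl* also passed edgeR without replicate 1 labelled L1L2-AKO (0.0450) or L1L2-FF replicate 3 (0.0486).

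Of 16 tested feedback regulators and ETS factors that are induced by receptor tyrosine kinase signalling through ERK (the *Dusp*, *Spry*, *Spred* and *Etv* genes and their like), 0 were called in edgeR and limma-voom, and DESeq2 called 1, *Spry1*, higher (edgeR log2 fold change 0.43, SE 0.134, adjusted p = 0.0644). In an edgeR fit with the replicate number as a block, *Il17rd* of this list was called lower. At an unadjusted p under 0.05 in the main fit, 2 were higher and 3 lower. The estimates ran from -0.83 to 1.70 with a median of 0.15. Of all tested genes 16.5% passed in edgeR, and a list this short holds few calls at that share. Of 8 tested EGF receptor inhibitors, 1 was lower: *Lrig1*, a transmembrane protein that promotes the loss of ERBB receptors, with 86.3, 68.7 and 69.1 CPM in L1L2-FF and 46.2, 35.9 and 46.0 in libraries labelled L1L2-AKO (-0.81, SE 0.147, edgeR adjusted p = 0.00902). The list's median was 0.06, and 7.18% of all tested genes were lower. Of 4 tested FGF cofactors and carriers, the one called, *Ffar4*, is a fatty acid receptor and no FGF carrier, and it was lower (-1.12, SE 0.202, adjusted p = 0.00851).

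Of 21 tested adaptors and core kinases of the RAS-ERK cascade, 3 were higher by small amounts and 0 lower, with a median of 0.08, where 9.28% of all tested genes were higher and 7.18% lower. They were the docking protein *Gab1* (0.63, edgeR adjusted p = 0.0246), the kinase *Map2k1* (0.55, adjusted p = 0.0126) and the GTPase *Nras* (0.43, adjusted p = 0.0437). *Gab1* was lost without replicates 2 or 3 labelled L1L2-AKO (0.0859 and 0.0855) or L1L2-FF replicate 1 (0.0922), and *Map2k1* without replicate 3 labelled L1L2-AKO (0.0541) or L1L2-FF replicate 1 (0.0649). *Nras* was lost without any one library but L1L2-FF replicate 3, at 0.084, 0.104 and 0.139 for replicates 1 to 3 labelled L1L2-AKO and 0.144 and 0.082 for L1L2-FF replicates 1 and 2.

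Of 16 tested proteases and inhibitors that process growth factor precursors, 3 were higher and 0 lower, with a median of 0.14, beside the same 9.28% and 7.18% of all tested genes. *Pcsk5*, a proprotein convertase, had 17.1, 31 and 14.1 CPM in L1L2-FF and 143, 232 and 274 in libraries labelled L1L2-AKO (log2 fold change 3.38, SE 0.355, edgeR adjusted p = 9.78e-04). *St14*, the membrane protease matriptase that can activate HGF, had 38, 30 and 18 counts against 287, 168 and 221 (2.99, SE 0.327, adjusted p = 0.00119). *Adam9*, a membrane metalloprotease, had 127, 110 and 127 against 286, 379 and 467 CPM (1.64, SE 0.190, adjusted p = 0.00142). The groups of all 3 were far apart, and their calls held with each library left out. The main EGF-type ligand sheddases *Adam10* (0.03, SE 0.121) and *Adam17* (0.19, SE 0.0977) were not called, and are given although outside the rule because of that role.

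**Figure D5:**
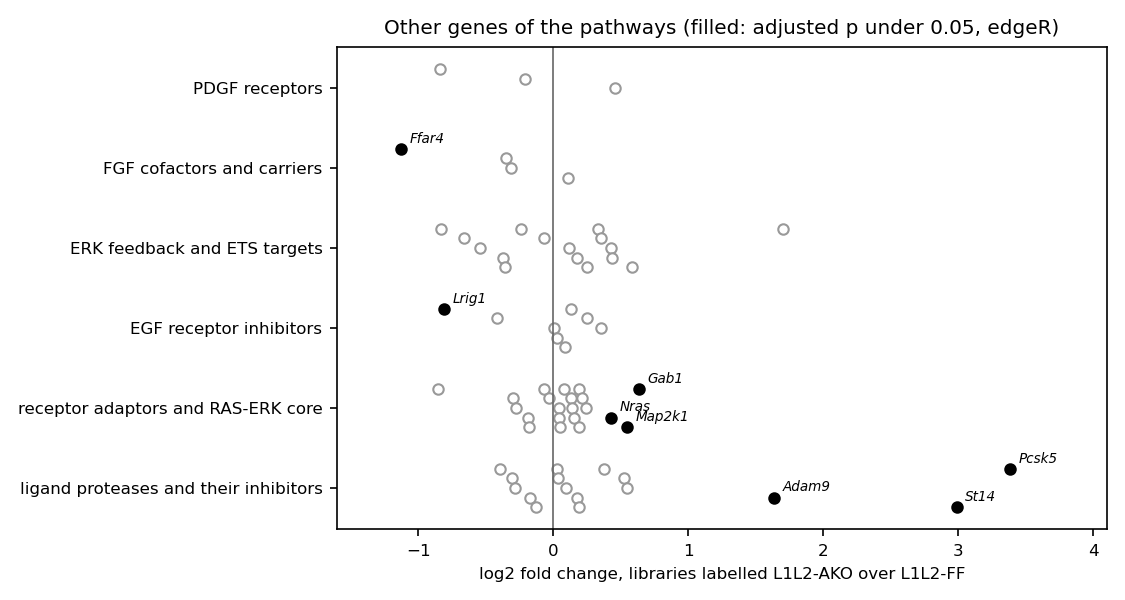
Log2 fold change of each tested gene on the 6 pathway lists, 1 point per gene (spread vertically only for legibility), filled and named where the edgeR adjusted p was under 0.05. *Pcsk5* (3.38), *St14* (2.99) and *Adam9* (1.64) stand to the right among the proteases. The ERK feedback genes hold no filled point, where 16.5% of all tested genes passed.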

How the data were processed

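Counts per gene were analysed in 6 libraries, 3 per genotype by the submitters' labels. The authors sequenced paired ends on a BGISEQ-500, aligned them to mm10 with HISAT2 2.1.0, used StringTie 1.3.5 and deposited raw counts per gene symbol, whole numbers with no normalization. The annotation, counting program and strand setting are not given in the sources used here, so overlapping genes on opposite strands may share reads.

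All 37384 symbols entered one fit in R 4.3.3: edgeR 4.0.16 filterByExpr (minimum count 10, minimum total 15; 15674 genes kept), TMM, quasi-likelihood test of the genotype, two-sided, Benjamini-Hochberg adjustment, threshold 0.05. SE is the absolute log2 fold change over the square root of F. The script was tested on simulated data. Permuting 3 against 3 libraries allows a smallest two-sided p of 0.1. CPM use TMM, and TPM use exon lengths of GENCODE M21, which matched 36961 symbols and all 49 genes. Promoter sequences are RefSeq's (GRCm38.p6). No 2 libraries of a genotype agreed within counting noise. limma 3.58.1, DESeq2 1.42.0, other scalings, filters, a replicate block and each library left out were alternatives.

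The genes and lists were chosen with earlier results of these data known. Values per library are given for called genes, the 3 most abundant tested genes of each family, a gene over 3 counts in all libraries of 1 genotype and at most 3 in the other, called list genes (at most 4 each way), *Pdgfra*, *Pdgfrb*, *Lats1* and *Lats2*; other genes are marked as outside this rule.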

Additional observations from a re-analysis of the deposited data

How the results depend on the processing

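All 11 called genes kept their call with DESeq2's size factors, library size alone or upper quartile scaling in edgeR and in the DESeq2 Wald test, which called 11 higher (main 7), adding *Erbb3*, *Fgf21*, *Fgfrl1*, *Nrg1* and *Pdgfc* to all calls. limma-voom lost *Pdgfd*, no filter added *Erbb3* and *Fgfrl1*, and a minimum of 10 counts in every library left *Fgf9* and *Fgf14* untested. With each library left out, 5 to 8 genes were called higher and 2 to 4 lower (2 without L1L2-FF replicate 1), while over all genes 777 to 1552 were higher (main 1455) and 467 to 1293 lower (main 1125). Pathway list genes ranged from 3 to 7 higher (main 6, lowest without L1L2-FF replicate 1) and 2 to 4 lower (main 2, highest without L1L2-FF replicate 3), and *Lats2* from 0.55 to 0.78; the cause was not tested.

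Replicate numbers are shared by the genotypes, and same-numbered libraries correlated at r = 0.188, 0.255 and -0.0544 for replicates 1, 2 and 3. L1L2-FF replicates 1 and 2 correlated best with their own number and replicate 3 with replicate 1 labelled L1L2-AKO (0.211), so the numbers were not taken as pairs. The replicate block called 11 genes, 10 of them shared with the main fit, without *Pdgfd* (adjusted p = 0.05) and with *Erbb3* (0.0257). It called 4 pathway list genes lower (main 2), adding *Pdgfrl* (0.0390) and the ERK feedback gene *Il17rd*.

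Estimates changed sign for 6 genes, none of them called. *Pdgfb* (main 0.00) was -0.00052 with 10 counts in every library, -0.11 in limma-voom, -0.10 with the replicate block, -0.029 by upper quartile, and -0.34 to 0.31 with each library left out. With each library left out *Egf* ranged from -0.61 to 0.034 and *Fgf13* from -0.014 to 0.62 (each past 0 without L1L2-FF replicate 2), *Pdgfra* from -0.48 to 0.16 (likewise), *Areg* from -0.14 (without L1L2-FF replicate 3) to 1.34 and *Fgf2* from -0.26 (without replicate 3 labelled L1L2-AKO) to 0.45. At this depth values of genes near or under 10 counts rest on few reads.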
